A study of Mus musculus with 4 samples.

Results

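The genes that drive strand invasion in meiotic recombination were followed as a set of 9, *Dmc1*, *Psmc3ip*, *Mnd1*, *Meiob*, *Spata22*, *Brca2*, *Hsf2bp*, *Rad51ap2* and *Rpa1*, chosen by gene name from the 24411 rows that each deposited file lists. All 9 were found, and all 9 passed the filter for expressed genes, set at 1 TPM or more on average across libraries, as did 14512 genes in all. RNA came from testis germ cells of mice at postnatal day 18, on a mixed C57BL/6 and CBA strain background according to the labels. The cells were sorted for GFP, which these mice make from the *Rec8* locus (Rec8-3xFLAG-HA-p2A-GFP knock-in), so that cells expressing this meiotic cohesin were collected. The 2 control libraries were *Zfp541*+/- and the other 2 were labelled *Zfp541* KO, the KO allele being a deletion of most of the gene made by genome editing. Of the controls, 1 was heterozygous and 1 homozygous for the knock-in, without the labels saying which, whereas both KO animals were homozygous, so that knock-in dose and genotype cannot be told apart. Values were compared to ask which transcripts of meiotic prophase cells differ when ZFP541 is lost.

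In meiotic prophase, programmed double-strand breaks are resected to single-stranded DNA, which is first covered by RPA. Recombinases, among them the meiosis-specific DMC1, then replace RPA with the help of BRCA2 and its partners, search for the homologous chromosome and invade it. The heterodimer of HOP2 (the product of *Psmc3ip*) and MND1 stimulates this invasion, and MEIOB with SPATA22 forms a meiosis-specific complex on single-stranded DNA. In mouse testis, loss of DMC1, HOP2, MND1, MEIOB, SPATA22 or HSF2BP is known to leave breaks unrepaired and to arrest spermatocytes.

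Expression was given as TPM, a transcript abundance corrected for length and brought to one total per library, which keeps no sequencing depth, so no interval for counting error could be given. For *Zfp541*, the targeted gene, the controls gave 112 and 72.2 TPM and the KO-labelled libraries 136 and 151 TPM (log2 fold change 0.67, SE 0.28, limma adjusted p = 0.371). The transcript was not lower where the label says KO, and TPM per gene does not separate deleted from remaining exons, so genotypes rest on the labels alone, as does every direction below. Nothing in the labels says that the samples of a group came from separate cultures or litters, so the spread measured is that between these libraries. *Rec8*, the locus of the GFP reporter, was at 7.05 and 27.9 TPM in the controls, against 27.7 and 19.4 TPM in the KO-labelled libraries, so that control 1 was the lowest. The controls also differed from each other in markers of non-germ cells, and the summed TPM of 6 Leydig cell markers was 3603 in control 1 and 19.4 in control 2, against 392 and 606 in the libraries labelled KO. Summed macrophage markers (*Adgre1*, *Csf1r* and *Cd68*) were at 416 and 4.26 TPM in controls 1 and 2, against 374 and 277 TPM in KO-labelled libraries 1 and 2.

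In TPM as deposited, the 9 strand exchange genes split into a group of 5 that stood about 2-fold higher in the libraries labelled KO and a group of 3 that did not. *Mnd1*, *Meiob*, *Brca2*, *Dmc1* and *Spata22* had mean TPM 1.80 to 2.35 times those of the controls. *Psmc3ip* and *Rpa1* had 0.925 and 0.915 times the control mean, and *Hsf2bp* 1.10 times. *Rad51ap2* stood between, at 1.48 times, with controls that differed from each other by more. Summed over the 9 genes, 927 and 1049 TPM were measured in the controls, against 1441 and 1450 TPM in the KO-labelled libraries.

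Both libraries labelled KO lay above both controls for 7 of the 9 genes, a pattern that 38.6% of the 14512 genes tested also showed. No strand exchange gene lay below both controls, whereas 12.1% of all genes tested did. In bulk RNA, a different number of cells of a stage and a different amount of RNA per cell cannot be told apart. The median log2 fold change of the 9 was 0.84, and that of all genes tested was 0.28. No gene of the 9 passed a false discovery rate of 0.05 in limma, and of all genes tested 0 did (0% called), with adjusted p from 0.310 to 0.853 for the 9. At an unadjusted p under 0.05 in limma there were 5 of the 9, all higher (*Dmc1*, *Mnd1*, *Meiob*, *Spata22* and *Brca2*), against 10.7% of all genes tested in that direction and 3.73% in the other. Without control 1, limma called 4 of the 9 (*Mnd1*, *Meiob*, *Spata22* and *Brca2*) and 48.1% of all genes tested. Without control 2 it called 6 (the same 4 with *Dmc1* and *Rad51ap2*) and 28.4% of all genes tested. In both of these fits the spread came from the 2 libraries labelled KO alone, and the lone control was assumed to vary as they did. After median-ratio scaling, under which the median of all genes was -0.0044 in place of 0.28, 4 of the 9 genes lay above both controls (*Mnd1*, *Meiob*, *Spata22* and *Brca2*), as 23.1% of all genes did. The log2 fold changes of these 4 then ran from 0.52 (*Spata22*) to 1.01 (*Mnd1*), and *Dmc1* (0.63) overlapped the controls. *Psmc3ip* and *Rpa1* then lay below both controls, as 22.3% of all genes did. At an unadjusted p under 0.05 in limma there was then 1 of the 9, counted in either direction, beside 629 genes higher and 1079 lower of all tested.

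**Figure D1:**
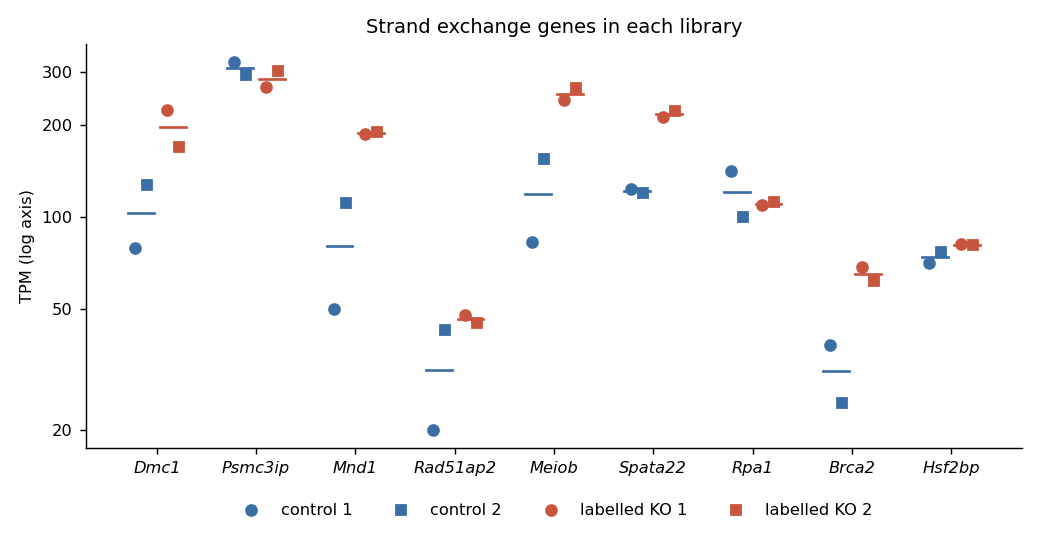
TPM of the 9 strand exchange genes (log axis) in controls 1 and 2 (blue) and in the libraries labelled KO 1 and 2 (red), with short lines at the group means of 2 libraries each. *Mnd1*, *Meiob*, *Spata22*, *Brca2* and *Dmc1* show red points clear of the blue ones, whereas the points of *Psmc3ip* and *Rpa1* overlap.

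The promoters of 6 of these genes are shown because they include genes that stood higher in the KO-labelled libraries and a partner or relative that did not. Each is the window of 250 bases before the RefSeq start site on GRCm38.p6, 5′ to 3′ on the strand of the gene, with the letters GCGGGA or their reverse complement in capitals. These letters are the core of sites bound by E2F factors, among them E2F6, a subunit of the PRC1.6 complex known to keep meiotic genes silent in other cells. The windows lie at chr15:79605110-79605359 for *Dmc1* (minus strand), chr11:101095436-101095685 for *Psmc3ip* (minus), chr3:84155787-84156036 for *Mnd1* (minus), chr11:73329491-73329740 for *Spata22* (plus), chr5:150522371-150522620 for *Brca2* (plus) and chr11:75348384-75348633 for *Rpa1* (minus).
*Dmc1*: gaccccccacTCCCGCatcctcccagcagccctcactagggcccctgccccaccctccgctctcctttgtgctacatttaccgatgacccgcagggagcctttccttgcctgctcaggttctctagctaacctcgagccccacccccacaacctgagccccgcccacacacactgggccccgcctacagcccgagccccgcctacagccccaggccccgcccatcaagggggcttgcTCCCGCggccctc
*Psmc3ip*: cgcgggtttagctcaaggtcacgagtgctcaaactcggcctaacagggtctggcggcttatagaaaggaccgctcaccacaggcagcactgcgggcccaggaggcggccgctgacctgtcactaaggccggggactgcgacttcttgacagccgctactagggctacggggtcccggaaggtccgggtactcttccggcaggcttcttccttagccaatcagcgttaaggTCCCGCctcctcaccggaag
*Mnd1*: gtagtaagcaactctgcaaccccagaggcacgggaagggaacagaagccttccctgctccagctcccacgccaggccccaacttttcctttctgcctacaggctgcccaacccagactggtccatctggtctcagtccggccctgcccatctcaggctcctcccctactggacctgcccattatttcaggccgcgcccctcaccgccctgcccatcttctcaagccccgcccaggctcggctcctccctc
*Spata22*: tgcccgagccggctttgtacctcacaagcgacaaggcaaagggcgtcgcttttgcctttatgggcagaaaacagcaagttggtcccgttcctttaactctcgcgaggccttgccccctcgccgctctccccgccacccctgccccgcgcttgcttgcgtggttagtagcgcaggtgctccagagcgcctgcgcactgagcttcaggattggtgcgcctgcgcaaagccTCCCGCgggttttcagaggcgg
*Brca2*: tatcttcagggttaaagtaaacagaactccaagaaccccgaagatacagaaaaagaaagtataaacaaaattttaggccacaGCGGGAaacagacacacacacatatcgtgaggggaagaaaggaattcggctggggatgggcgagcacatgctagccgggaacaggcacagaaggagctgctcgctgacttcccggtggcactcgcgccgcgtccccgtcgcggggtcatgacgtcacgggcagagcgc
*Rpa1*: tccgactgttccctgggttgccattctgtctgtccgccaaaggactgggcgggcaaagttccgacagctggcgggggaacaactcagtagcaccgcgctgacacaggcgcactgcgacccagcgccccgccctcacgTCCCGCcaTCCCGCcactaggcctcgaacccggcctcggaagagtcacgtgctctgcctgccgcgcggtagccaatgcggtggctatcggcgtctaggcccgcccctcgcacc

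The E2F core was found in 7 of the 8 windows available for the set (*Dmc1*, *Psmc3ip*, *Spata22*, *Brca2*, *Rpa1*, *Hsf2bp* and *Rad51ap2*) and in 16.9% of all 32851 RefSeq promoter windows of this length. It was present in the windows of *Psmc3ip* and *Rpa1*, which did not differ between the groups beyond their spread, and the window of *Mnd1*, with the largest difference of the 9, held none. The window of *Mnd1* instead held 2 matches to the GC box GGGCGG, which 4 of the 8 windows and 32.7% of all windows contained. CACGTG, the E-box read by MAX dimers, was found in *Rpa1* (1 of 8 windows, against 6.02% of all), and TGACG, the core read by CREB and related factors, in *Brca2* (1 of 8, against 17.8%). CNCCTCAG, a motif reported at STRA8-bound promoters, was found in 0 of the 8 windows and in 6.42% of all. All letters were searched on both strands, and overlapping matches of different motifs were each counted. The 8 windows held 50.4% to 68.8% G and C, and the median over all windows was 52.4%.

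*Dmc1*, the meiosis-specific recombinase (ENSMUSG00000022429.11, chr15:79561497-79605109 on GRCm38, minus strand), was at 79.0 and 127 TPM in controls 1 and 2, against 225 and 170 TPM in KO-labelled libraries 1 and 2. The groups did not overlap, although the lower KO-labelled library was only 0.42 above the higher control on the log2 scale. Its log2 fold change was 0.96 (SE 0.32, limma adjusted p = 0.326), higher in all 4 pairs of a KO-labelled library with a control, and it was 0.62 without control 1 and 1.299 without control 2.

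*Psmc3ip* (ENSMUSG00000019303.14, chr11:101091823-101095436, minus strand) and *Mnd1* (ENSMUSG00000033752.7, chr3:84087933-84155786, minus strand) encode the subunits of the HOP2-MND1 heterodimer, and their transcripts gave unlike differences. *Psmc3ip* was at 322 and 293 TPM in controls 1 and 2, against 266 and 302 TPM in KO-labelled libraries 1 and 2. These values overlapped, and the log2 fold change of -0.11 had a 95% interval of -0.64 to 0.41 (adjusted p = 0.803 from limma). *Mnd1* was at 49.8 and 111 TPM in controls 1 and 2, against 187 and 190 TPM in KO-labelled libraries 1 and 2, with no overlap and with the libraries labelled KO nearly equal. Its log2 fold change of 1.33 (SE 0.42, limma adjusted p = 0.321) was the largest of the 9, and ranged from 0.76 without control 1 to 1.90 without control 2. In the GENCODE M21 annotation, the exons of *Psmc3ip* share 385 bases (29.8%) with *Mlx* on the opposite strand, and whether counting used strand is not given in the sources used here. *Mlx* itself was at 22.3 and 25.0 TPM in controls 1 and 2, against 25.3 and 20.6 TPM in KO-labelled libraries 1 and 2, well below *Psmc3ip*.

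*Rad51ap2* (ENSMUSG00000086022.1, chr12:11456079-11462928, plus strand) encodes a germ-line protein of meiotic recombination. It was at 19.95 and 42.6 TPM in controls 1 and 2, against 47.8 and 44.9 TPM in KO-labelled libraries 1 and 2. Control 2 came close to both libraries labelled KO, and control 1 was far below all others. The log2 fold change of 0.65 (SE 0.42, limma adjusted p = 0.514) was smaller than the gap of 1.06 between the controls, and it was 0.12 without control 1.

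The next genes encode proteins that bind single-stranded DNA. *Meiob* (ENSMUSG00000024155.8, chr17:24804289-24839788, plus strand), a meiotic relative of *Rpa1*, was at 82.7 and 155 TPM in controls 1 and 2, against 242 and 266 TPM in KO-labelled libraries 1 and 2 (log2 fold change 1.15, SE 0.35, limma adjusted p = 0.320). Without control 1 the log2 fold change of *Meiob* was 0.70, and without control 2 it was 1.60. Its partner *Spata22* (ENSMUSG00000112920.1, chr11:73329741-73346044, plus strand) was at 123 and 119 TPM in controls 1 and 2, against 214 and 223 TPM in KO-labelled libraries 1 and 2. *Spata22* was the most even of the 9 genes within groups (at most 1.04-fold apart), and its log2 fold change of 0.84 (SE 0.17, limma adjusted p = 0.310) stayed between 0.81 and 0.87 when any library was left out. Of its exonic bases in GENCODE, 80.5% are also annotated to Gm49340 on the same strand, a gene that has no value among the deposited ones. *Rpa1* (ENSMUSG00000000751.13, chr11:75298166-75348324, minus strand), the large subunit of the general RPA heterotrimer, was at 141 and 100.1 TPM in controls 1 and 2, against 109 and 112 TPM in KO-labelled libraries 1 and 2. Both libraries labelled KO fell between the controls, and the log2 fold change of -0.11 had a 95% interval of -0.75 to 0.54 (adjusted p = 0.853 from limma). The log2 fold change of *Rpa1* was -0.43 under median-ratio scaling and -0.23 under quantile normalization. There it lay below both controls, as 22.3% and 19.4% of all genes did.

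The other RPA subunits did not share one pattern. *Rpa2* was at 87.2 and 234 TPM in controls 1 and 2, against 142 and 119 TPM in KO-labelled libraries 1 and 2, again between the controls. *Rpa3*, the smallest subunit, was at 34.2 and 75.7 TPM in controls 1 and 2, against 156 and 110 TPM in KO-labelled libraries 1 and 2, with no overlap (log2 fold change 1.35, SE 0.45, limma adjusted p = 0.328), from 0.78 without control 1 to 1.91 without control 2.

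For recombinase loading, *Brca2* (ENSMUSG00000041147.10, chr5:150522630-150570329, plus strand), which brings recombinases such as DMC1 to single-stranded DNA, was at 37.9 and 24.5 TPM in controls 1 and 2, against 68.4 and 61.7 TPM in KO-labelled libraries 1 and 2. All KO-labelled values were above the controls, and the log2 fold change was 1.07 (SE 0.29, limma adjusted p = 0.315). After correction of each library for transcript length, a setting chosen after the data were seen, it was 0.38. *Hsf2bp* (ENSMUSG00000002076.12, chr17:31944769-32036349, minus strand), whose product recruits BRCA2 to meiotic recombination sites, was at 70.8 and 76.5 TPM in controls 1 and 2, against 81.2 and 80.7 TPM in KO-labelled libraries 1 and 2. Although the groups did not overlap, the log2 fold change was 0.14 with a 95% interval of -0.35 to 0.62 (adjusted p = 0.739 from limma). It was -0.19 under median-ratio scaling, which lowered the log2 fold change of each of the 9 genes by about 0.32, and -0.038 under quantile normalization. *Brme1*, listed in the files as 4930432K21Rik and encoding a partner of HSF2BP, was at 40.5 and 68.8 TPM in controls 1 and 2, against 43.9 and 39.4 TPM in KO-labelled libraries 1 and 2, and these values overlapped.

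Differences within known partnerships were followed as a ratio of TPM inside each library. Such a ratio does not depend on scaling between libraries, but it can still carry library differences tied to transcript length. *Psmc3ip* exceeded *Mnd1* by 6.47 and 2.65 times in the controls, against 1.42 and 1.59 times in the KO-labelled libraries. The ratio was thus lower in both libraries labelled KO than in either control, with a difference of -1.46 on the log2 scale (-0.81 without control 1 and -2.10 without control 2). *Hsf2bp* to *Brca2* was 1.87 and 3.12 in the controls, against 1.19 and 1.31 in the KO-labelled libraries, a log2 difference of -0.95 with no overlap (-1.32 without control 1 and -0.58 without control 2). *Meiob* to *Rpa1* was 0.585 and 1.55 in the controls, against 2.22 and 2.37 in the KO-labelled libraries, also without overlap, but the gap between the controls (1.41) was larger than the log2 difference of 1.27, which was 0.56 without control 1 and 1.97 without control 2. *Meiob* to *Spata22*, partners that were both higher, was 0.672 and 1.301 in the controls, against 1.13 and 1.19 in the KO-labelled libraries, with overlap. Over these 4 pairs the two-sided exact permutation p was 0.33 for the 3 ratios without overlap, the smallest that 2 against 2 libraries allow, and 1 for *Meiob* to *Spata22*, so that none can pass 0.05 in this design.

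**Figure D2:**
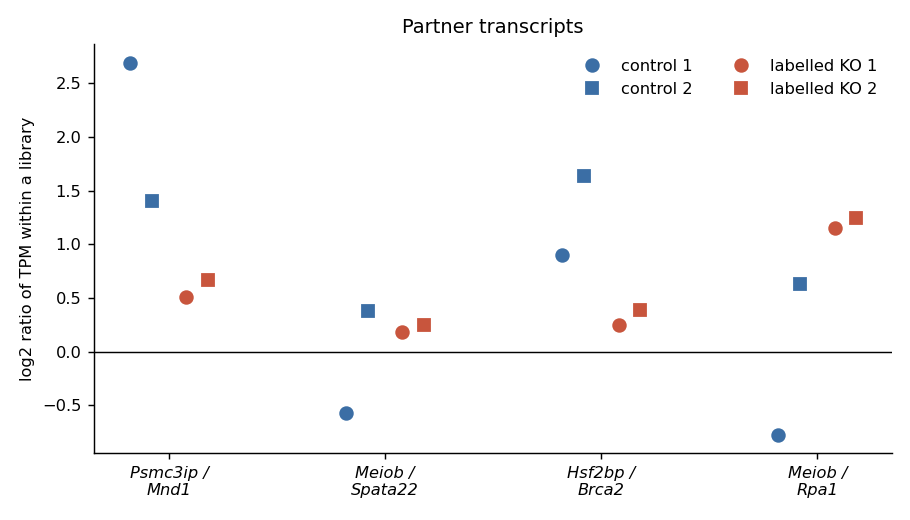
Log2 ratio of TPM within each library for 4 pairs of partner or paralogous transcripts, with controls in blue and libraries labelled KO in red. *Psmc3ip* to *Mnd1* runs from a ratio of 6.47 in control 1 down to 1.42 and 1.59 in the libraries labelled KO, and only *Meiob* to *Spata22* has red points between the blue ones.

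TPM is corrected for length, so levels were compared between the genes of the set, although library differences tied to transcript length can remain. *Psmc3ip* was the most abundant in all 4 libraries, taking 34.7% and 27.9% of the summed TPM of the 9 genes in the controls, against 18.5% and 20.8% in the KO-labelled libraries. In the controls *Rpa1*, *Spata22* and *Meiob* followed with means of 121, 121 and 119 TPM, which did not differ beyond their spread, then *Dmc1* (103 TPM), *Mnd1* (80.2 TPM) and *Hsf2bp* (73.7 TPM). In the libraries labelled KO *Meiob* (254 ± 16.9 TPM, SD, n = 2) stood next to *Psmc3ip* (284 ± 25.4 TPM, SD, n = 2) with overlapping spread, followed by *Spata22*, *Dmc1* and *Mnd1* at 218, 198 and 189 TPM. *Rpa1* took 15.3% and 9.53% of the sum in the controls, against 7.57% and 7.72% in the KO-labelled libraries, where it ranked sixth in both. *Brca2* and *Rad51ap2* were the lowest in every library.

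The control libraries differed from each other more than the libraries labelled KO did for 7 of the 9 genes, *Psmc3ip* apart and with *Spata22* nearly even in both. Control 1 was below control 2 by 2.23-fold for *Mnd1*, 2.14-fold for *Rad51ap2*, 1.88-fold for *Meiob* and 1.61-fold for *Dmc1*, and above it by 1.55-fold for *Brca2* and 1.41-fold for *Rpa1*. Between the libraries labelled KO the largest gap was 1.32-fold, for *Dmc1*, and the others were at most 1.14-fold. For *Rad51ap2*, *Rpa1* and *Psmc3ip* the gap between the controls was larger than the difference between the groups.

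Related recombination genes were read from a list of 33 in 6 roles. Of these, 23 lay above both controls in both libraries labelled KO, 0 lay below, and 10 overlapped, a share of 69.7% above where 38.6% of all genes tested did the same. Their median log2 fold change was 0.51, and none passed the false discovery rate of 0.05 in limma (adjusted p from 0.310 to 0.920). At an unadjusted p under 0.05 in limma, 10 of the 33 were higher, whereas 10.7% of all genes tested were. *Mcmdc2*, which encodes an MCM-like protein needed for repair of meiotic breaks, was at 36.6 and 29.2 TPM in controls 1 and 2, against 99.3 and 134 TPM in KO-labelled libraries 1 and 2 (log2 fold change 1.78, SE 0.26, limma adjusted p = 0.310). No other of the 33, and none of the 9, had a larger log2 fold change. All 4 listed genes of strand exchange accessories and all 6 of recombinase removal lay above both controls, among them *Rad54b* (log2 fold change 0.63), the helicase *Blm* (0.96), the ATPase *Fignl1* (0.64) and its partner BC055324 (0.79), and *Recql5* (0.70). *Blm* was at 1.41 without control 1 and 0.51 without control 2, and BC055324 at 0.29 and 1.29. The smallest log2 fold changes of these roles were 0.33 for *Rad51ap1* and 0.44 for *Fbxo18*, which encodes a helicase.

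Of 8 genes of recombinase loading, 5 lay above both controls, including *Brca1* (log2 fold change 0.99), its partner *Bard1* (0.69) and *Rad52* (0.74). Among 6 genes of break resection, which makes the single-stranded DNA that the recombinases use, 5 did so, including *Rad50* (0.95), *Nbn* (0.65) and *Dna2* (0.67), while the nuclease gene *Exo1* had 0.27 with overlap. *Nbn* was at 0.91 without control 1 and 0.39 without control 2, and *Exo1* at 0.028 and 0.52. Of 7 genes of the *Xrcc2*, *Xrcc3* and Shu complexes, which help recombinase filaments form, 2 lay above both controls and 5 overlapped, a share of 28.6% above beside 38.6% of all genes tested. In that group *Xrcc2* had the largest log2 fold change (0.59, adjusted p = 0.367 from limma) and *Swsap1* the smallest (-0.14, adjusted p = 0.912).

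**Figure D3:**
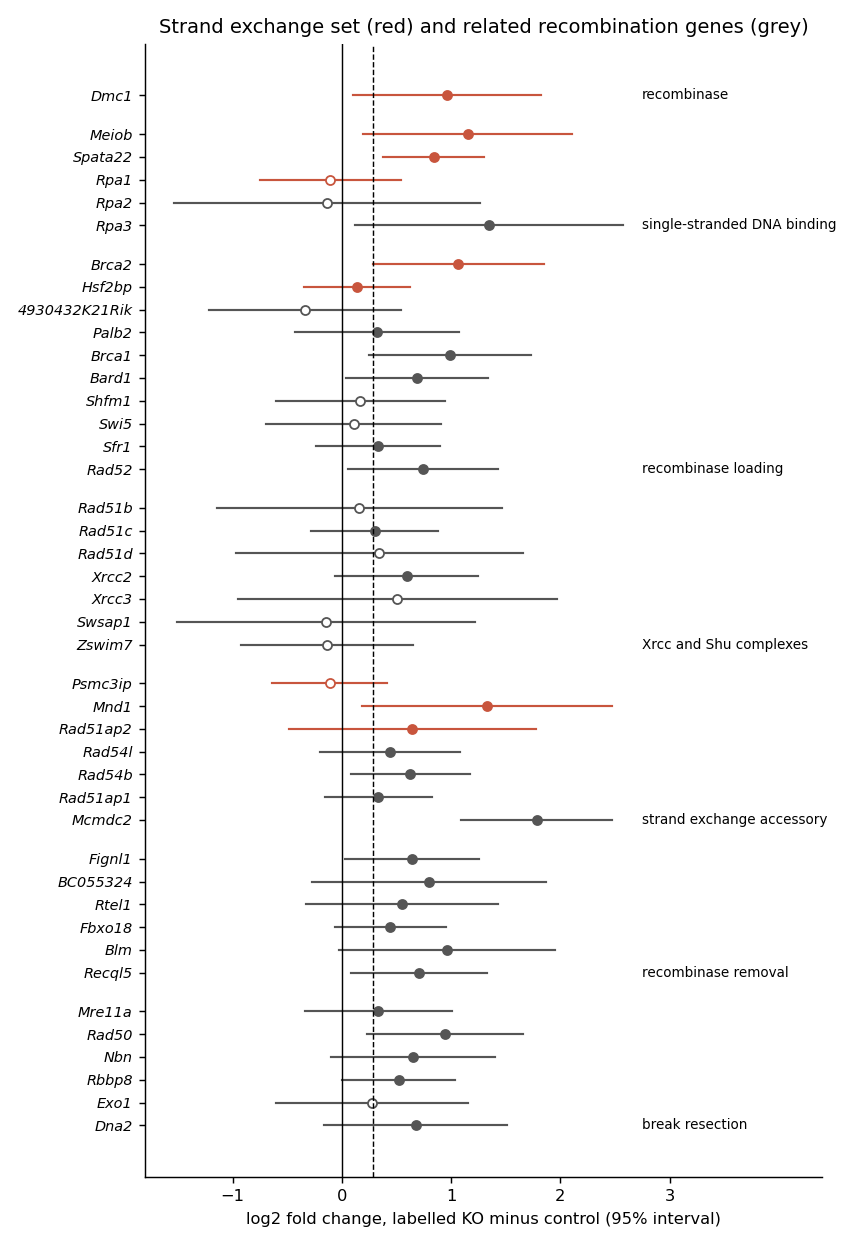
Log2 fold change of the libraries labelled KO against the controls, with 95% intervals from limma, for the 9 strand exchange genes (red) and 33 related genes (grey) by role. Filled points mark genes with both KO-labelled values above both controls, the dashed line is the median of all genes tested (0.28), and *Mcmdc2* (1.78) lies farthest to the right.

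Markers of prophase stages were read as lists, in which no gene passed the false discovery rate of 0.05 in limma, beside 38.6% of all genes tested above both controls and 12.1% below. Of 7 markers of the meiotic axis and of synapsis, called axis markers here, 5 were above both controls in both libraries labelled KO (median log2 fold change 0.73). The summed level of the 7 was 2952 and 2963 TPM in the controls, against 4677 and 4978 TPM in the KO-labelled libraries. *Sycp3* was at 1108 and 1263 TPM in controls 1 and 2, against 2093 and 2196 TPM in KO-labelled libraries 1 and 2, and *Smc1b*, a meiotic cohesin subunit, had the largest log2 fold change of that list (1.22, adjusted p = 0.310 from limma), whereas *Syce1* was at -0.23. Of the 12 leptotene and zygotene markers 10 were found, and 6 were above both controls (median log2 fold change 0.65). Their sums were 2303 and 4871 TPM in the controls, against 4867 and 4589 TPM in the KO-labelled libraries. *Tex101* made up most of this sum in every library, so the level that control 2 reached is largely that of *Tex101*. *Hormad1*, the next most abundant, was at 531 and 728 TPM in the controls, against 1145 and 1232 TPM in the KO-labelled libraries. *Mei4* (log2 fold change 1.27, 0.84 without control 1) and *Hormad1* (0.93) were among the higher ones. *Tex101*, the most abundant of the list, was at 1354 and 3627 TPM in the controls, against 2984 and 2742 TPM in the KO-labelled libraries, and *Spo11*, which makes the breaks, had the smallest log2 fold change (-0.16). *Sycp1*, of the axis list, was at 0.84.

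Of 12 pachytene markers, 6 lay below both controls and 1 above, with a median log2 fold change of -0.95. *Spata16* (-3.83), *Meig1* (-1.63) and *Ldhc* (-1.41) had adjusted p of 0.310, 0.310 and 0.336 from limma. *Mybl1*, a transcription factor gene of pachytene, was the one above (0.77), and the sums were 9138 and 4956 TPM in the controls, against 3188 and 4394 TPM in the KO-labelled libraries. *Hist1h1t*, the testis histone H1t, was at only 1.00 to 2.55 TPM in all 4 libraries, and how well mRNA libraries capture this transcript was not tested. The part of stage composition in the values of the strand exchange genes was not tested. Scaled in each library to the summed axis markers, a setting chosen after the data were seen, the median log2 fold change of the 9 genes was 0.14 and that of all genes -0.34, and 2 of the 9 (*Mnd1* and *Spata22*) still lay above both controls, as 6.48% of all genes did. *Psmc3ip*, *Rpa1* and *Hsf2bp* then lay below both, as 42.9% of all genes did.

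Markers of other cells varied from list to list, and their counts stand beside 38.6% of all genes tested above both controls and 12.1% below. The 10 spermatogonial markers summed to 744 and 1025 TPM in the controls, against 672 and 625 TPM in the KO-labelled libraries. Of these markers 2 lay above and 1 below both controls, and their median log2 fold change was 0.060. The most abundant, *Uchl1*, was at 127 and 559 TPM in the controls, against 273 and 225 TPM in the KO-labelled libraries. The 1 below, *Dmrtb1*, was at 362 and 154 TPM in the controls, against 93.4 and 94.7 TPM in the KO-labelled libraries. The 8 Sertoli cell markers summed to 1206 and 1666 TPM in the controls, against 1844 and 1430 TPM in the KO-labelled libraries, so these groups overlapped, with 2 of the 8 genes above both controls. *Aard*, the most abundant of them, ranged from 377 to 951 TPM. None of the 6 Leydig cell markers and none of 7 macrophage and blood cell markers separated the groups. The most abundant were *Insl3*, at 1925 and 4.99 TPM in the controls, and *Csf1r*, at 209 and 1.12 TPM. The most abundant spermatid marker, *Spaca1*, was at 7.34 and 13.9 TPM in the controls, against 27.0 and 26.6 TPM in the KO-labelled libraries. The 8 spermatid markers summed to 19.4 to 20.3 TPM in the controls and 36.0 to 37.5 TPM in the libraries labelled KO. In the latter, *Spaca1* and *Tssk6* (8.83 and 7.14 TPM) made up most of the sum. Only 3 of the 8 passed the filter for expressed genes, and 2 of these lay above both controls. *Tnp2*, which overlapped, was at 7.59 and 0 TPM in the controls, against 0.46 and 0.75 TPM in the KO-labelled libraries. *Prm1* was at 0 except for 1.48 TPM in control 1. The 4 peritubular myoid markers, led by *Tagln* at 7.46 to 11.8 TPM, summed to 10.7 to 23.5 TPM. None of these markers was at 0 in every library, and whether such cells contributed to the strand exchange values was not tested.

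**Figure D4:**
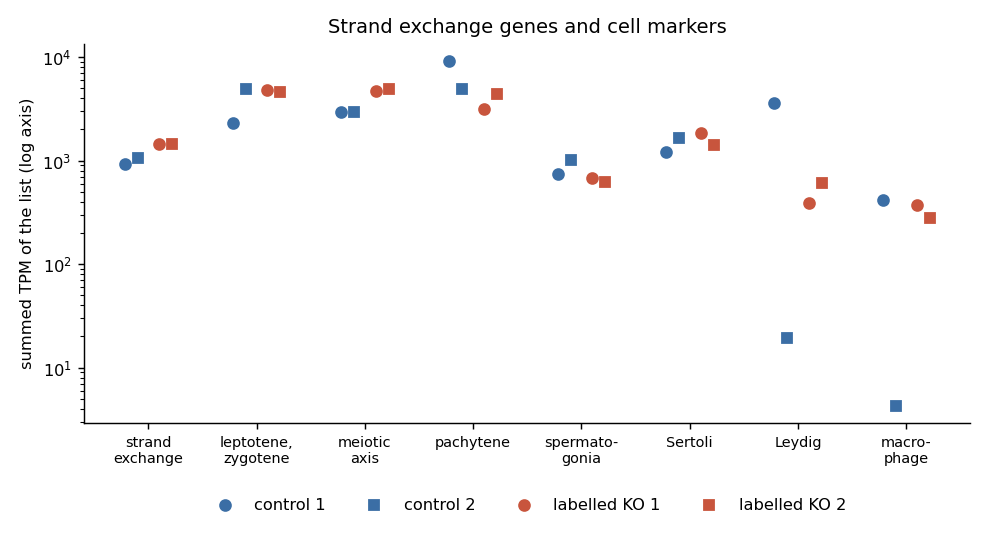
Summed TPM (log axis) of the 9 strand exchange genes and of 7 marker lists in controls (blue) and libraries labelled KO (red). The strand exchange and meiotic axis sums are higher in both red points than in both blue ones, and the pachytene sums are lower in both. The spermatogonial sums are also lower, although the median log2 fold change of the 10 spermatogonial genes was 0.060. Control 2 stands apart by its low Leydig (19.4) and macrophage (4.26) sums.

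The genes whose profile over the 4 libraries lay nearest to that of *Dmc1*, measured as the Euclidean distance between centred log2(TPM + 1) values, were *Esco2* (0.038), *Chrna7* (0.083), *Fbxo47* (0.10), *Cth* (0.12) and *Mei1* (0.12). *Esco2*, a cohesin acetyltransferase, was at 39.2 and 61.2 TPM in controls 1 and 2, against 111 and 83.0 TPM in KO-labelled libraries 1 and 2. *Mei1*, needed for meiotic break formation, was at 12.2 and 22.1 TPM in controls 1 and 2, against 35.8 and 27.7 TPM in KO-labelled libraries 1 and 2. *Chrna7* and *Cth* were at 7.87 TPM or less in every library. Among the strand exchange genes, *Meiob* (0.46) and *Rad51ap2* (0.47) were nearest to *Dmc1* and *Psmc3ip* (1.29) and *Rpa1* (1.39) farthest, beyond the median of all genes tested (1.19). Of all genes tested, 2.89% lay nearer to *Dmc1* than *Meiob* did and 3.14% nearer than *Rad51ap2*. For *Brca2* and *Hsf2bp* these shares were 29.6% and 31.4%. With 4 libraries from 2 groups, such distances describe these samples only.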

How the data were processed

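Total RNA of GFP-positive cells was made into libraries with a kit for mRNA (TruSeq Standard mRNA) and sequenced as single-end 75 nt reads. According to the methods and the submitters' processing notes, the authors trimmed reads with Trim Galore 0.5.0 (cutadapt 1.16), aligned them to mm10 with STAR 2.6.0a and deposited TPM per gene from RSEM 1.3.1. The study ran its own differential test on TPM through RSEM, and limma was used in its place.

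Genes averaging 1 TPM or more across libraries (14512 of 24411) were fitted as log2(TPM + 1) with limma 3.58.1 in R 4.3.3, with a mean-variance trend, and p-values were adjusted over all genes tested (Benjamini-Hochberg, FDR of 0.05). Fold changes are on this scale, which understates low genes. Of the rows, 27 carry a date for a name. Named genes were the 9 genes of the set, *Zfp541*, related genes apart between groups with a log2 fold change of at least 0.58 in size, the largest and smallest of each role, the most abundant and most changed stage markers, the most abundant marker of each other list, and the 5 genes nearest to *Dmc1*. The set and the lists were chosen with earlier results of these data known. Other genes were named after their values were seen. A gene of the list, with its ratio, is not reported here. Coordinates are from GENCODE M21 (GRCm38, the assembly of mm10) and promoters from RefSeq. Alternatives covered pseudocount, filter, scaling, trend, replicate block, left-out libraries and FDR; a crossed block, length correction and axis-marker scaling were added after the data were seen.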

Additional observations from a re-analysis of the deposited data

How the results depend on the processing

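With 2 libraries a group and no depth, small differences could not be resolved. With all 4 libraries, no gene passed the FDR of 0.05 in limma in any setting except the crossed block, and none passed 0.1 as deposited, beside 1549 genes higher and 542 lower at an unadjusted p under 0.05. Deviations of same-numbered libraries from their group means had a weak negative correlation across genes (-0.16). This value gives no sign of pairing by number, but it cannot show whether such samples shared a litter or batch. With replicate number as the block, 0 genes were higher and 0 lower, and 0 of the 9 strand exchange genes passed. With the numbers crossed, 7 genes were higher and 80 lower, none of them of the 9. With 1 library left out, 0 to 5610 genes were higher, 0 to 1875 lower and 0 to 6 of the 9 past the threshold.

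The count of strand exchange genes above both controls was 7 as deposited, beside 38.6% of all genes tested. It was 5 with quantile normalization (27.8% of all genes), 5 with the length correction (24.1%), 4 with median-ratio scaling (23.1%) and 2 with axis-marker scaling (6.48%). Below both controls lay 0 of the 9 as deposited, beside 12.1% of all genes tested. *Rpa1* lay below with quantile normalization (19.4% of all genes) and the length correction (18.8%), and *Psmc3ip* and *Rpa1* with median-ratio scaling (22.3%). With axis-marker scaling 3 did, *Psmc3ip*, *Rpa1* and *Hsf2bp* (42.9%). The median log2 fold change of the 9 was 0.84, and 0.52 with median-ratio scaling, 0.42 with the length correction and 0.14 with axis-marker scaling. The medians over all genes in the same fits were 0.28, -0.0044, 0.058 and -0.34. At an unadjusted p under 0.05 in limma, genes higher and lower numbered 1549 and 542 as deposited, 629 and 1079 after median-ratio scaling and 1010 and 1009 after quantile normalization. With the length correction they numbered 593 and 815, and with axis-marker scaling 98 and 2300. Of the 9, in either direction, 5 were under 0.05 as deposited, 4 after quantile normalization and 1 after median-ratio scaling. There were 2 of the 9 with the length correction and 3 with axis-marker scaling. *Hsf2bp* changed sign with median-ratio scaling (-0.19, with *Exo1* at -0.038 and *Aard* at -0.077), quantile normalization (-0.038), the length correction (-0.081) and axis-marker scaling (-0.56), and *Psmc3ip* (0.0096), *Exo1* (-0.31) and *Uchl1* (0.051) with the length correction. Axis-marker scaling also turned *Rad51ap2* (-0.041), *Zfp541* (-0.034), *Xrcc2* (-0.094), *Rad54b* (-0.066), *Fignl1* (-0.062), *Nbn* (-0.034), *Rad51ap1* (-0.36), *Fbxo18* (-0.25), *Exo1* (-0.39), *Tex101* (-0.34), *Aard* (-0.46) and *Tagln* (-0.15). Axis-marker and median-ratio scaling lowered each of the 9 genes by about 0.70 and 0.32, a shared shift; for changes of sign in other settings the cause was not tested. With a library left out, *Rpa1* ranged from -0.35 to 0.14, *Syce1* from -0.51 to 0.050, *Rpa2* from -0.84 to 0.57, 4930432K21Rik from -0.71 to 0.038, *Tex101* from -0.34 to 1.08, *Spo11* from -0.41 to 0.093, *Uchl1* from -1.17 to 0.96, *Aard* from -0.42 to 0.92, *Insl3* from -2.88 to 5.45, *Csf1r* from -0.34 to 6.29, *Swsap1* from -0.74 to 0.46 and the log2 ratio of *Meiob* to *Spata22* from -0.16 to 0.79.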
